A study of Mus musculus with 6 samples.

Results

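The presynaptic terminal of a neuron stores transmitter in synaptic vesicles and releases it when calcium enters, and 43 genes whose products build this machinery were followed here in 2 populations of sorted glial precursors. The genes were chosen by name, as vesicle, release machinery and active zone genes, and every probe of the array that is not a control and carries one of these names was taken. This gave 74 of the 55681 probes for 43 of the 34836 gene and transcript names on the array. All 43 names were found on the array, 27 with 1 probe and 16 with several. Each gene is represented by its brightest probe over all 6 arrays, and the other probes are reported where they differ.

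The cells came from the cerebellum of wild-type mice of either sex, which the labels describe as CD1 at postnatal days 1 to 3, whereas the study's methods name a C57BL/6 background and, for the arrays, cerebella taken at birth or the day after. Astrocyte cell surface antigen-2 (ACSA-2, here A) is an epitope on the product of Atp1b2, and GLAST (here G) is the glutamate transporter encoded by Slc1a3. The A+/G+ fraction carries both antigens and was taken with beads against ACSA-2 alone, without prior depletion. The A-/G+ fraction was first depleted of cells carrying ACSA-2, L1CAM, PSA-NCAM, CD45 or Ter119 and then selected for GLAST. L1CAM and PSA-NCAM are surface molecules of neurons and migrating neuroblasts, so that 1 fraction and not the other passed through a step that removes such cells. Each fraction was measured in 3 biological replicates of 50000 cells from pooled cerebella on an Agilent array with 1 color, hybridized with amplified and labeled poly(A) RNA. Neither fraction is a neuronal sort, and what is measured is the RNA of all cells that each sort retained. In such a bulk sample, fewer cells of a type and less RNA per cell cannot be told apart.

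Release of transmitter follows a cycle. Vesicle proteins such as the synapsins, synaptophysin and SV2 sit on the vesicle membrane, transporters fill it with transmitter, and Rab3 proteins with their effectors bring it to the active zone, a scaffold built by Bassoon, Piccolo, RIM and ERC proteins. Munc13 proteins, encoded by the Unc13 genes, prime the vesicle by opening syntaxin, the SNARE proteins SNAP-25, VAMP and syntaxin 1 fuse the membranes, complexins clamp and assist them, and synaptotagmins sense calcium. Dynamin and amphiphysin then retrieve the membrane, and neurexins hold the terminal to its partner cell. In the neonatal cerebellum synapses are few, and the main neurons are Purkinje cells, dividing granule cell precursors and immature interneurons.

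An array reads a gene only through the letters of its probe, and for 3 of the 43 genes these letters are shared with other genes. The first 30 bases of 60-base probes are shown for Cplx2 (3 of its 5 probes), Snap25 and Rab3c, because the readout of these genes depends on which probe is read. Capitals mark bases inside an exact run of 18 bases that the probe shares with a probe of another gene on another chromosome. Positions are on mm9, from the annotation of the array.
Cplx2 A_55_P2067960, brightest, chr6:140877310-140877369, minus strand: AGGAGGAGGAGGAGGAGGAGGAGGAGGAGG
Cplx2 A_55_P2040775, chr5:112438094-112438174, plus strand: AAGGAGGAGGAGGAGGAGGAGAAGGAAGAG
Cplx2 A_51_P485161, chr13:54485200-54485259, plus strand: tccccactttgtatgatgcaaatgctaaga
Snap25 A_55_P2051849, only probe, chr2:136607709-136607768, plus strand: CACACACACACACACACACAAAGtggattt
Rab3c A_55_P2095854, brightest, chr13:110850524-110850583, minus strand: atgtTCTACAGAGTGAGTTCTAggatagca
Rab3c A_55_P2182222, chr13:110850530-110850589, minus strand: gctagaatgtTCTACAGAGTGAGTTCTAgg
Rab3c A_55_P1956567, chr13:110844454-110844513, minus strand: ctgttaggtatttagtttgtgtgtgaattc
All Cplx2 probes but A_51_P485161 consist of repeats of purines and hold 6 different triplets of bases each, against a median of 36 over all probes. The shown repeat probes share runs with probes of 14 and 18 other genes in the order above and are annotated to chromosomes 6 and 5, while RefSeq (GRCm38.p6) places Cplx2 on chromosome 13. The Snap25 probe opens with a repeat of CA and shares runs with 24 other genes. Both Rab3c probes with capitals overlap each other and share 1 run with 1 other gene. In all, 7 of the 74 probes shared such a run, and 2657 of the 55681 probes on the array did (4.77%).

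The 2 fractions differed in how much signal the arrays carried. On the A+/G+ arrays 26478 to 26664 probes were well above background, compared with counts, in replicates 1, 2 and 3 of A-/G+, of 18349, 21424 and 24738. Of the 43 genes, 40, 40 and 39 were well above background on the A+/G+ arrays and 23, 31 and 35 on the A-/G+ arrays. A difference of a dim gene therefore rests on A-/G+ signals at or below background. All arrays of a fraction were on 1 slide, a different one for each fraction, and therefore an effect of the slide and one of the fraction cannot be told apart. The antigens themselves followed the sort in part, with Atp1b2 at 12.97, 12.70 and 12.81 on the log2 scale in A+/G+ and 10.86, 10.82 and 10.31 in A-/G+ (difference 2.16, adjusted p = 0.00725, limma), and Slc1a3 at 13.26, 13.31 and 13.61 against 14.85, 14.92 and 13.99 (difference -1.19, adjusted p = 0.0733).

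Most of the presynaptic genes were read in both fractions. Of the 43, 22 were well above background on all 6 arrays, 13 on some arrays of both fractions, 5 on A+/G+ arrays alone (Sv2c, Syt4, Syt7, Unc13c and Sncb) and 3 on none (Slc17a7, Syt2 and Cplx3). The genes read on no array encode the vesicular glutamate transporter VGLUT1, a fast calcium sensor of the mature hindbrain and a complexin of retinal ribbon synapses. No gene was read in A-/G+ alone. Among the 22373 genes of the array that RefSeq names, 10973 were read on all 6 arrays and 7163 on none. A+/G+ arrays alone read 1514 of them, while only 161 were limited to A-/G+ arrays. Genes limited to A-/G+ were thus rare over the whole array as well. The mean was higher in A+/G+ for 33 genes and in A-/G+ for 10, and for 28 and 15 when arrays were shifted to a common 75th percentile instead of being quantile normalized. With quantile normalization, 10105 of the 22373 genes had the higher mean in A+/G+, and 12268 had the lower one there. The median difference over the 43 genes, A+/G+ minus A-/G+, was 0.46 on the log2 scale, and over the 22373 genes of the array that RefSeq names it was -0.03. With that shift these medians were 0.41 and -0.34, so that the whole array moved by more than 0.1 between the scalings. With only probes well above background on all arrays kept, the medians lay closer together. They were 0.29 over the 22 presynaptic genes left and -0.05 over all that were kept.

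**Figure D1:**
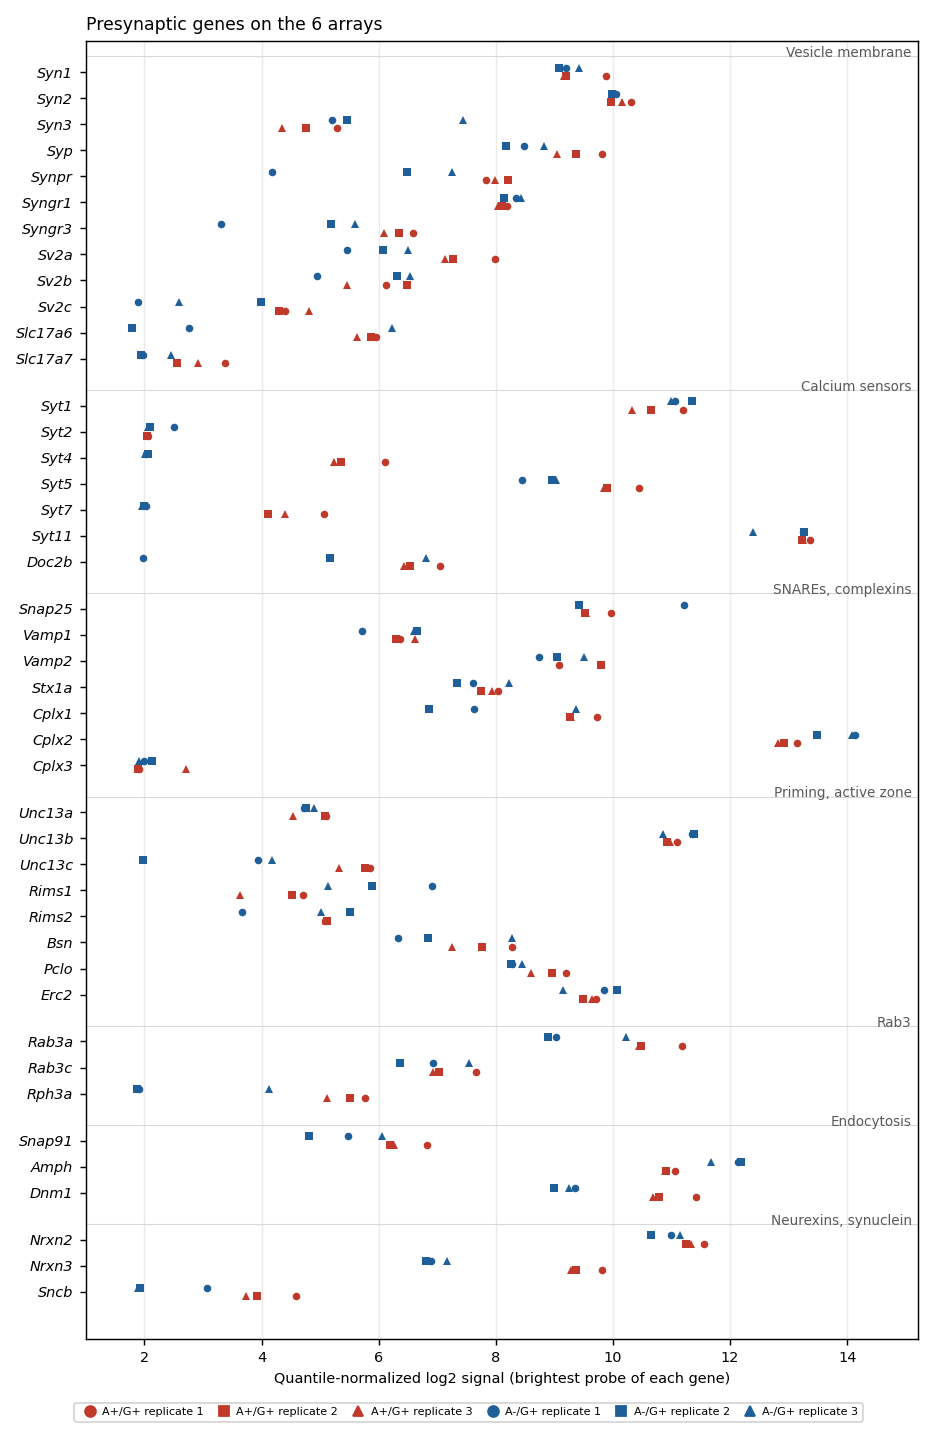
Quantile-normalized log2 signal of the brightest probe of each of the 43 genes on the 6 arrays, grouped by the role of the protein; red symbols are A+/G+, blue symbols are A-/G+, and the shape gives the replicate. Syt4 and Syt7 lie near 2 on all A-/G+ arrays, and many genes between 2 and 7 are spread widely over the A-/G+ arrays.

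Of the 43 genes, 5 had a higher level in A+/G+ at a Benjamini-Hochberg adjusted p of at most 0.05 from limma, namely Syt4, Syt7, Syt5, Dnm1 and Nrxn3, and 1, Amph, was higher in A-/G+. Over all genes named by RefSeq, 7.88% and 5.01% passed this test in the 2 directions, and 5 and 1 of 43 genes lie near these shares. With the added limit of medians at least 4-fold apart, Syt4, Syt7 and Nrxn3 were called higher in A+/G+ and no gene was called in A-/G+, against 2.77% and 0.42% of all genes. The A+/G+ arrays all lay above the A-/G+ arrays for 18 genes and below them for 4 (Syt2, Cplx2, Rims1 and Amph), where 20.1% and 22.8% of all genes did not overlap. With normexp background correction 9 genes passed toward A+/G+ and none was called, and with the 75th percentile shift Syt5 and Syt7 did not pass. Without replicate 3 of A-/G+, 8 genes passed in the direction of A+/G+, with Slc17a6, Cplx1, Rab3a and Rph3a among them, and 6 were called. Without replicates 2 and 3 of A+/G+, 3 and 2 genes passed.

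**Figure D2:**
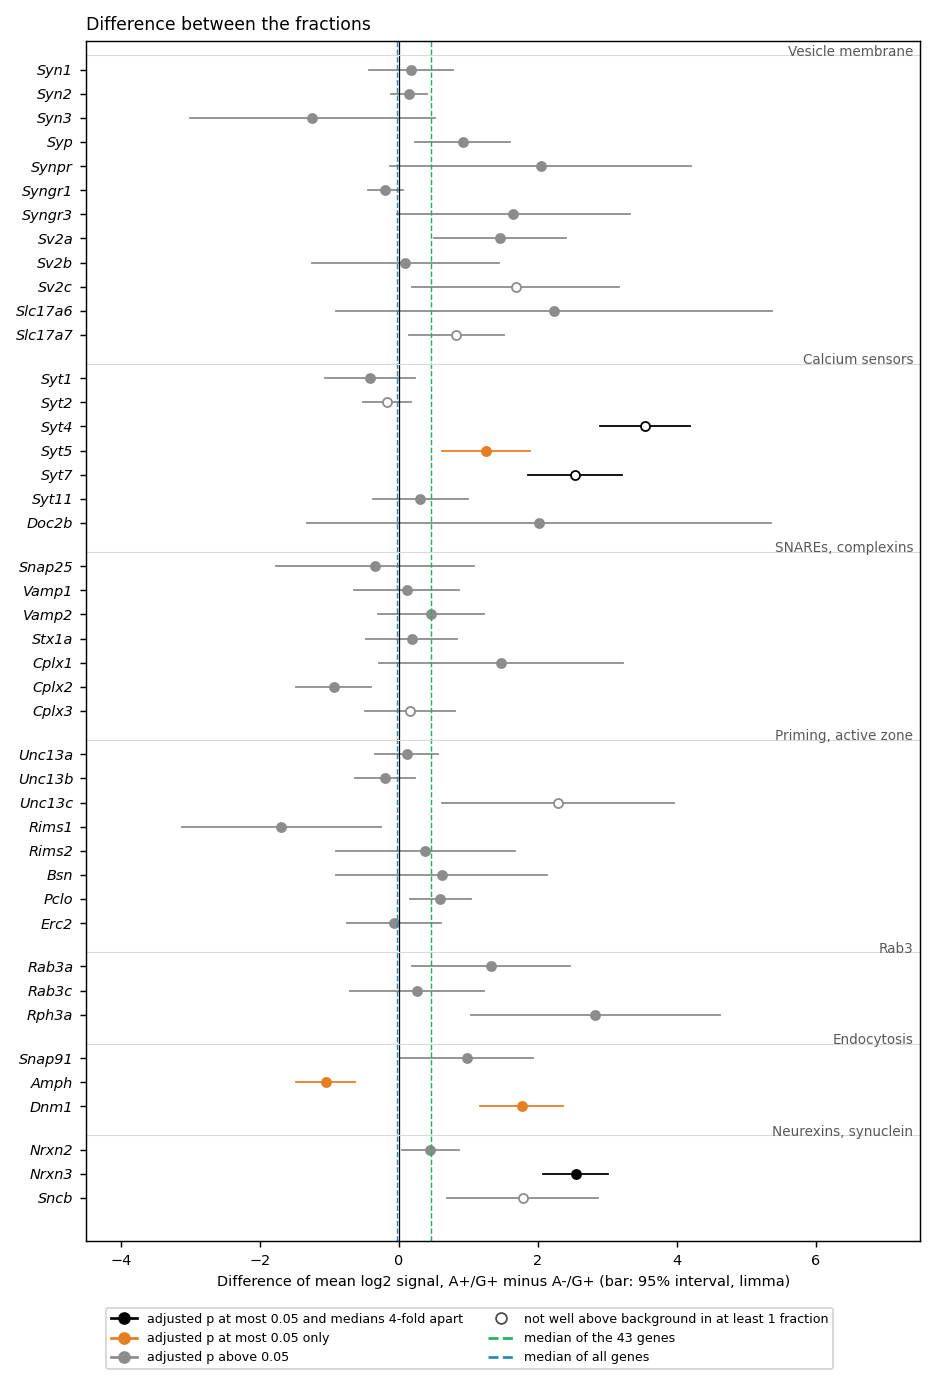
Difference of the mean log2 signal between A+/G+ and A-/G+ for each of the 43 genes with its 95% interval from limma; colors give the side of the test, and open circles mark genes that were not well above background in at least 1 fraction. The intervals are not adjusted for the number of probes tested, and 16 of them lie above 0 and 3 below 0 (Cplx2, Rims1 and Amph). Those above 0 include the genes that passed, Syt4, Syt7, Syt5, Dnm1 and Nrxn3, and of those below 0 only Amph passed. The widest intervals belong to Slc17a6 and Doc2b.

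Among the genes of the vesicle membrane, none of 12 passed the test (limma, and none by the methods' t-test), with 4 at an unadjusted p of at most 0.05, a limit that 30.9% of all genes named by RefSeq met in either direction. Their median difference was 0.87, with the mean higher in A+/G+ for 10. Syn1, the gene of synapsin I, which ties vesicles to actin, had log2 signals of 9.88, 9.19 and 9.16 in replicates 1, 2 and 3 of A+/G+ and 9.20, 9.08 and 9.43 in those of A-/G+ (chrX:20437641-20437700). Its fractions overlapped, and the difference was 0.17 with a 95% interval from -0.43 to 0.78. Syn2, which encodes synapsin II, read 10.31, 9.97 and 10.15 against 10.04, 9.99 and 9.98 (chr6:115226390-115226449), and its interval of -0.12 to 0.40 was the narrowest of the group together with that of Syngr1. For Syngr1, a synaptogyrin of the vesicle membrane, the brightest probe read 8.19, 8.10 and 8.03 against 8.34, 8.14 and 8.43 (chr15:79941040-79941099; difference -0.19, adjusted p = 0.338). A dimmer Syngr1 probe, annotated to another transcript of the gene, read 7.72, 7.24 and 7.12 against 6.31, 6.50 and 6.40 and lay above A-/G+ by 0.96 (adjusted p = 0.0400, limma). The probes of 1 gene thus lay on different sides of the test. Syp, which encodes synaptophysin, an abundant vesicle protein, read 9.81, 9.37 and 9.05 against 8.48, 8.17 and 8.82 (chrX:7230297-7230356) and did not overlap between fractions, but its difference of 0.92 had an adjusted p of 0.111.

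The remaining vesicle genes were dimmer. Sv2a, whose product is the binding site of levetiracetam, averaged 7.46 ± 0.46 (SD, n = 3) in A+/G+ and 6.01 ± 0.53 in A-/G+ (adjusted p = 0.0813), without overlap. Synpr, Syngr3 and Sv2c likewise did not overlap, with differences of 2.04, 1.65 and 1.68 and adjusted p of 0.241, 0.222 and 0.166. Sv2c was read on A+/G+ arrays alone and was at least 1.05-fold higher there. Slc17a6, which encodes the vesicular glutamate transporter VGLUT2, read 5.96, 5.86 and 5.63 in A+/G+ and 2.76, 1.78 and 6.22 in A-/G+. Replicates 1 and 2 of A-/G+ lay at background, and replicate 3 lay above all A+/G+ arrays. Sv2b differed by 0.09 and Syn3 by -1.24, both with overlap, and the 4 probes of Syn3 ran from -1.24 to 1.64.

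Calcium sensors held 3 of the 5 genes that passed in the direction of A+/G+. Syt4, a synaptotagmin of secretory vesicles that lacks a calcium-binding residue, read 6.11, 5.36 and 5.23 in A+/G+ and 2.02, 2.05 and 2.00 in A-/G+ (chr18:31598394-31598453; adjusted p = 0.00531, limma). No A-/G+ array was well above background for it, so that A+/G+ was at least 2.20-fold higher for Syt4. Syt7, a slow, high-affinity sensor, read 5.07, 4.11 and 4.40 against 2.03, 2.00 and 1.95 (chr19:10527150-10527209; adjusted p = 0.0111) and lay at least 1.07-fold above A-/G+ by the same measure. Leaving out replicate 3 of A+/G+ brought its adjusted p to 0.0549. A second Syt7 probe was below background on all 6 arrays. Syt5 read 10.44, 9.89 and 9.84 in A+/G+ and 8.44, 8.96 and 9.02 in A-/G+ (chr7:4491370-4491429), a difference of 1.25 with a standard error of 0.24 and an adjusted p of 0.0448. Its medians were 1.91-fold apart, so that it was not called, and it did not pass when any 1 of the 6 arrays was left out, with adjusted p from 0.0529 to 0.130.

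The other sensors did not pass. Syt1, the main fast sensor of the forebrain, read 11.19, 10.64 and 10.33 against 11.06, 11.35 and 10.98 (chr10:107935310-107935369), with a difference of -0.41 and a 95% interval from -1.06 to 0.24. Syt11, which does not bind calcium, was bright in both fractions, at 13.35, 13.22 and 13.24 and 13.24, 13.26 and 12.39 (chr3:88548623-88548682). Its medians were 1.00-fold apart, and replicate 3 of A-/G+ stood lower than the other arrays. Doc2b, a sensor for spontaneous release, read 7.05, 6.53 and 6.42 against 1.97, 5.17 and 6.81, and the A-/G+ arrays alone spanned from background to the A+/G+ level. Syt2 stayed between 2.04 and 2.50 on all arrays.

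No gene of the SNAREs and complexins passed the test (limma, and none by the methods' t-test, with 1 at an unadjusted p of at most 0.05), and their median difference of 0.16 was the smallest of the 7 groups. Vamp2, the SNARE of the vesicle, read 9.09, 9.79 and 9.79 against 8.74, 9.04 and 9.51 (chr11:68905527-68905586; 95% interval of the difference -0.31 to 1.22). Stx1a, the SNARE of the plasma membrane, read 8.04, 7.75 and 7.94 against 7.60, 7.34 and 8.23 (chr5:135526477-135526536; interval -0.47 to 0.84). For both genes the fractions overlapped. Cplx1 read 9.73, 9.26 and 9.28 in A+/G+ and 7.63, 6.86 and 9.36 in A-/G+ (chr5:108947895-108947954), so that replicate 3 of A-/G+ lay at the A+/G+ level and the other two well below it (difference 1.47, adjusted p = 0.295). Vamp1 differed by 0.11, and Cplx3 was below background on all arrays.

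Cplx2, a complexin of excitatory and inhibitory terminals, gave opposite readings by probe. The brightest repeat probe read 13.14, 12.92 and 12.82 in A+/G+ and 14.12, 13.48 and 14.08 in A-/G+, without overlap and lower in A+/G+ (difference -0.94, adjusted p = 0.0623). The other repeat probes differed by -0.68, -0.93 and -1.07. The probe without a shared run read 12.38, 12.03 and 11.76 against 10.81, 10.93 and 11.69, also without overlap but higher in A+/G+ (difference 0.91, adjusted p = 0.149). Within each array, the log2 ratio of this probe to the brightest one was -0.76, -0.89 and -1.06 in A+/G+ and -3.31, -2.55 and -2.39 in A-/G+. The Cplx2 repeat probes shared runs with 24 probes of 23 other genes, and all 24 had a lower A+/G+ mean (median difference -0.998). These 24 probes were examined after the Cplx2 values had been seen, and their part in the Cplx2 reading was not tested.

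Snap25, the plasma membrane SNARE that botulinum toxin A cleaves, read 9.96, 9.51 and 9.54 in A+/G+ and 11.21, 9.41 and 9.42 in A-/G+. Replicate 1 of A-/G+ stood 1.79 above the mean of the other two A-/G+ arrays, and without it the difference turned from -0.34 to 0.25. Of the 24 probes of other genes that share a run with the Snap25 probe, 21 were highest of all 6 arrays on that same array, compared with 21.9% of all genes well above background on all arrays. Their median excess there was 1.37. The share of the repeat in the Snap25 signal was not tested, and the array holds no other Snap25 probe.

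**Figure D3:**
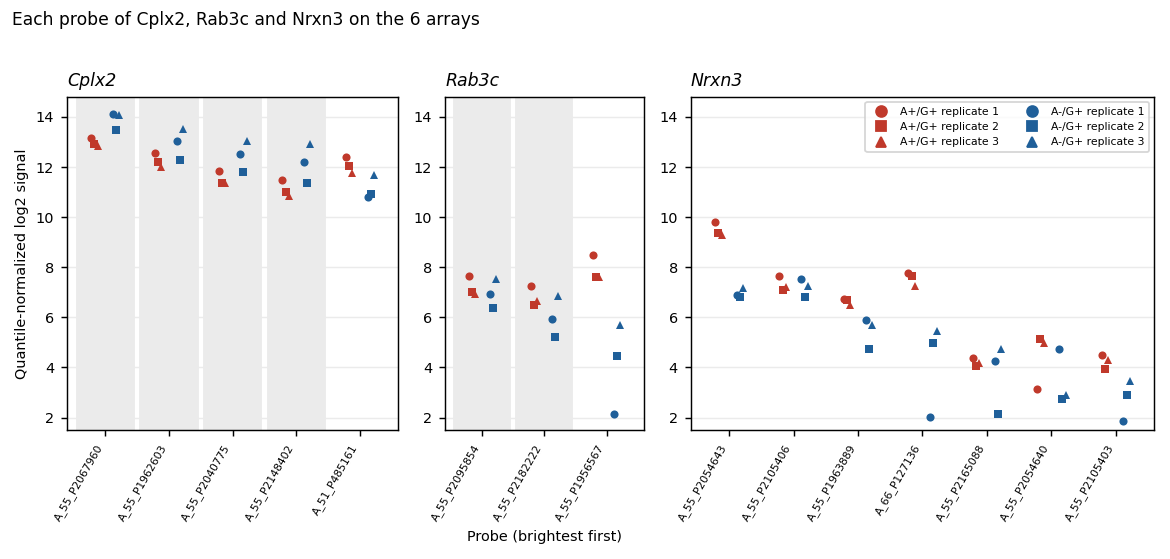
Quantile-normalized log2 signal of every probe of Cplx2, Rab3c and Nrxn3 on the 6 arrays; red symbols are A+/G+, blue symbols are A-/G+, and gray bands mark probes that share an exact run of 18 bases with another gene on another chromosome. The Cplx2 and Rab3c probes outside the gray bands are higher on all A+/G+ arrays than on any A-/G+ array.

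The priming and active zone genes did not pass either (limma, and none by the methods' t-test), with 3 of 8 at an unadjusted p of at most 0.05, 2 of them higher in A+/G+, a share near the 30.9% of all genes, and a median difference of 0.25. Unc13b, which encodes Munc13-2 and is expressed beyond neurons, read 11.08, 10.92 and 10.98 against 11.35, 11.38 and 10.85 (chr4:43277637-43277696), with an interval of -0.63 to 0.23. Erc2, a scaffold of the active zone, read 9.71, 9.49 and 9.64 against 9.84, 10.07 and 9.14 (chr14:29291658-29291717) and overlapped. The third Erc2 probe passed the test with -1.53 (adjusted p = 0.0105) but was below background on all 6 arrays, so that no fold is given. Bsn, the gene of Bassoon, read 8.28, 7.76 and 7.25 against 6.33, 6.84 and 8.27 (chr9:107998602-107998661), and its A-/G+ replicate 3 matched the highest A+/G+ array. Pclo, the gene of Piccolo, read 9.20, 8.96 and 8.60 against 8.28, 8.27 and 8.44 (chr5:14795934-14795993) without overlap (difference 0.59, adjusted p = 0.109), and its 4 probes ran from -0.56 to 2.71.

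The other genes of this group were dim. Unc13c, which encodes Munc13-3, a priming factor of cerebellar granule cells, averaged 5.65 ± 0.28 (SD, n = 3) in A+/G+ and was below background on all A-/G+ arrays. Its A+/G+ level was at least 2.06-fold higher, with an adjusted p of 0.107. Rims1 went the other way, with 4.71, 4.51 and 3.63 against 6.90, 5.89 and 5.13, but its adjusted p was 0.149, and its second probe was below background on all arrays. Unc13a and Rims2 differed by 0.11 and 0.38, with overlap.

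Rab3a and its partners had higher means in A+/G+, and none of the 3 passed (limma, and none by the methods' t-test), with 2 at an unadjusted p of at most 0.05. Rab3a, the most abundant Rab of synaptic vesicles, read 11.18, 10.47 and 10.45 against 9.02, 8.90 and 10.22 (chr8:73282447-73282506), without overlap (difference 1.32, adjusted p = 0.156). Replicate 3 was the A-/G+ array closest to the A+/G+ level. Rph3a, which encodes the Rab3 effector rabphilin, read 5.76, 5.51 and 5.11 against 1.91, 1.88 and 4.13 (adjusted p = 0.0765), where 2 A-/G+ arrays lay at background. For Rab3c the brightest probe read 7.66, 7.03 and 6.93 against 6.93, 6.35 and 7.55, with overlap (difference 0.26), and the probe that overlaps it differed by 0.80. The third probe, without a shared run and at another position, read 8.50, 7.61 and 7.59 against 2.12, 4.47 and 5.70 (difference 3.81, adjusted p = 0.0863). It was well above background on 1 of the 3 A-/G+ arrays, so that this difference rests on signals at background, and the adjusted p of each of the 3 probes was above the limit.

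Membrane retrieval held 1 gene on each side. Dnm1, the neuronal dynamin that cuts vesicles from the membrane, read 11.42, 10.79 and 10.68 in A+/G+ and 9.34, 8.99 and 9.25 in A-/G+ (chr2:32163995-32164054), higher in A+/G+ by 1.77 (standard error 0.23, adjusted p = 0.0182, limma). Its medians were 2.91-fold apart, and its second probe differed by 2.87 (adjusted p = 0.0897). Amph, which encodes amphiphysin, a partner of dynamin in clathrin-mediated retrieval, was bright and ran the other way, with 11.07, 10.90 and 10.88 against 12.14, 12.19 and 11.67 (chr13:19242694-19242753). It was the only one of the 43 genes whose brightest probe passed with a higher level in A-/G+ (difference -1.05, standard error 0.16, adjusted p = 0.0268, medians 2.36-fold apart). Both genes had separate fractions on all arrays, but neither was called, and whether they passed depended on single arrays. With each array left out in turn, Dnm1 passed in 3 of 6 fits (adjusted p from 0.0314 to 0.0706, above the limit without replicate 2 or 3 of A+/G+ or replicate 2 of A-/G+), and Amph passed in 1 (without replicate 3 of A-/G+, adjusted p from 0.00747 to 0.112). Snap91, which encodes the clathrin adaptor AP180, differed by 0.98 (adjusted p = 0.206), without overlap.

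Neurexins held the called gene with signal on all arrays. Nrxn3 read 9.82, 9.38 and 9.29 in A+/G+ and 6.89, 6.80 and 7.16 in A-/G+ (chr12:91573315-91573374), above background throughout, with a difference of 2.54 (standard error 0.18, adjusted p = 0.00544, limma) and medians 5.61-fold apart. Nrxn3 was called with each array left out (adjusted p from 0.00849 to 0.0324), and it passed but was not called with normexp or when its 7 probes were averaged. All 7 Nrxn3 probes had a higher mean in A+/G+, by 0.11 to 3.41, but only the brightest passed the test. The smallest difference came from a probe of another annotated transcript, which read 7.65, 7.08 and 7.23 against 7.53, 6.83 and 7.26 with overlap. Nrxn2 read 11.55, 11.25 and 11.33 against 10.99, 10.64 and 11.14 (chr19:6533156-6533215) and did not overlap, with a difference of 0.45 and an adjusted p of 0.178. Sncb, which encodes beta-synuclein of the terminal, was read on A+/G+ arrays alone, at 4.58, 3.93 and 3.73, and its difference of 1.78 had an adjusted p of 0.0698. Its A+/G+ mean of 4.08 lay below the weakest signal well above background on replicates 1 and 2 of A-/G+ (5.19 and 4.45). No bound on the fold is therefore given for Sncb.

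The replicates of a fraction did not stand at the same level. In A+/G+, replicate 1 was the highest of the 3 arrays for 36 of the 43 genes (83.7%), and for 35.5% of all genes. In A-/G+, replicate 3 was the highest for 25 (58.1%), and for 29.4% of all genes. Of the 19 genes of a pan-neuronal marker list, among them Tubb3, Elavl3 and Elavl4, 17 were highest in replicate 1 of A+/G+ and 16 in replicate 3 of A-/G+, each within its fraction. Tubb3 read 11.63, 10.96 and 10.87 in A+/G+ and 9.58, 9.41 and 11.47 in A-/G+, and Elavl3 10.81, 10.15 and 9.93 and 8.63, 8.94 and 10.85. The median SD over the presynaptic genes was 0.32 in A+/G+ and 0.49 in A-/G+, and 29 of 43 genes had the larger SD in A-/G+.

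Markers of neuronal classes differed between the fractions, and not all in 1 direction. The summed normalized signal of the pan-neuronal list ran from 39384 to 56487 in A+/G+ and from 19623 to 33151 in A-/G+. Only 1 of its 19 genes, Mapt, passed the test (difference 2.02, adjusted p = 0.0180). The mean was higher in A+/G+ for 17, while Elavl4 (-0.05) and Map2 (-0.35) went the other way. Tubb3, Elavl3 and Elavl4 had adjusted p of 0.446, 0.542 and 0.911 (limma). Of 15 Purkinje cell markers, 8 passed as higher in A+/G+ and 7 of these were called. The summed Purkinje signal was 7144 to 16800 in A+/G+ and 2774 to 3420 in A-/G+. Pcp2 read 11.52, 9.85 and 10.48 against 5.76, 5.80 and 5.34, Calb1 was at least 27.1-fold and Car8 at least 3.47-fold higher in A+/G+, and these last genes were below background on all A-/G+ arrays. Granule lineage markers ran differently, with none of 15 passing toward A+/G+ and 3 (Pax6, Etv1 and Zic2) toward A-/G+. Their first listed markers, Atoh1, Neurod1 and Neurod2, did not pass, with differences of 1.29, 0.31 and 0.94. Of the 15 means, 8 were higher in A+/G+ and 7 were lower there, and the median difference was 0.31. The summed signal of the list ran from 20025 to 23595 for A+/G+, against 29399 to 34602 for A-/G+. Bright probes lead such a sum. Zic1, the brightest of the 15, read 13.95, 14.04 and 13.85 against 14.75, 14.65 and 14.26 and did not pass (adjusted p = 0.0803, limma). Among 11 markers of GABAergic interneurons and their precursors, Gad1 was among those that passed toward A+/G+ and Ptf1a, Kirrel2 and Pvalb among those toward A-/G+, while the defining marker Pax2 was below background on all arrays and Gad2 on the A-/G+ arrays. The part of any of these cells in the presynaptic readings was not tested.

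**Figure D4:**
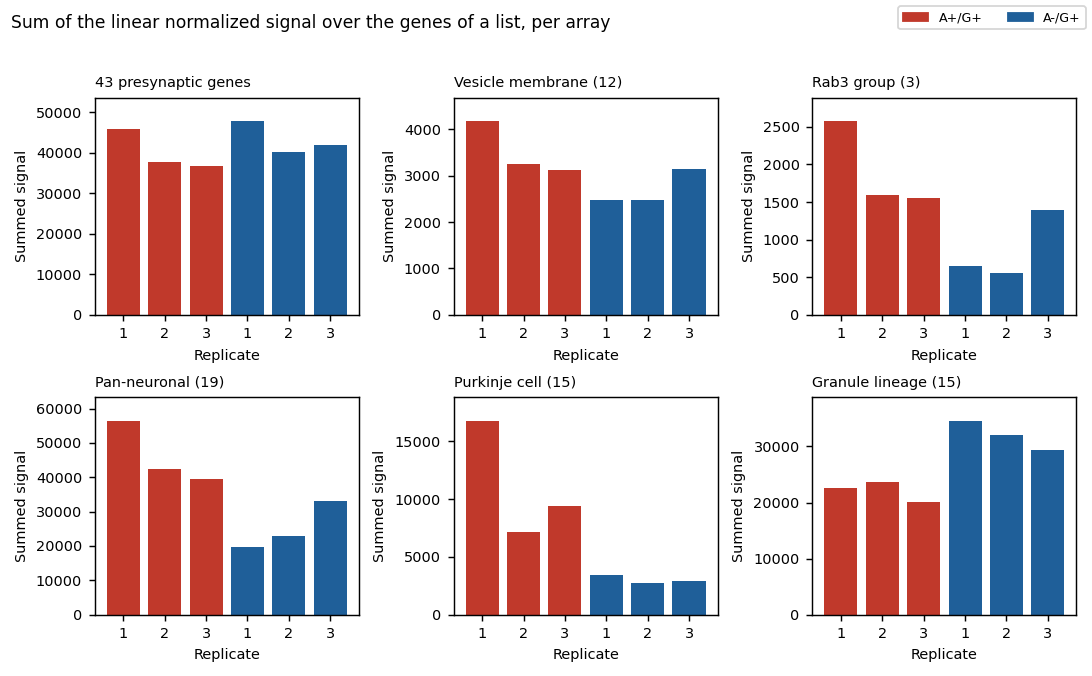
Sum of the linear quantile-normalized signal over the genes of a list on each array, for the 43 presynaptic genes, 2 of their groups and 3 marker lists; red bars are A+/G+ and blue bars are A-/G+, in the order of the replicates. Replicate 1 of A+/G+ has the tallest bar in the vesicle membrane, Rab3, pan-neuronal and Purkinje panels, and replicate 3 is the tallest A-/G+ bar in the vesicle membrane, Rab3 and pan-neuronal panels.

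The summed signal of the presynaptic genes did not separate the fractions, at 36772 to 45959 in A+/G+ and 40266 to 47826 in A-/G+. Such a sum is led by bright probes, and without Cplx2 it was 29536 to 36906 in A+/G+ and 24536 to 29972 in A-/G+. The Rab3 group summed to 1552 to 2580 and 562 to 1398 without overlap, and the vesicle membrane group to 3114 to 4184 and 2468 to 3138 with overlap.

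Non-neuronal markers differed as well. Of 14 astroglial markers 6 passed toward A+/G+, among them Gja1, Gfap, Atp1b2 and Slc4a4, and Aldh1l1 toward A-/G+, with a summed signal of 245000 to 260781 in A+/G+ and 162389 to 261845 in A-/G+. Oligodendrocyte lineage markers passed in 3 of 10 toward A+/G+ (Olig1, Olig2 and Pdgfra) and in 1 toward A-/G+ (Mbp), and ependymal markers in 7 of 9, with Foxj1 at 9.83, 9.83 and 10.40 against 6.83, 5.88 and 7.54. Markers of nuclear and brainstem neurons passed in 2 of 12, Meis2 among them, while 6 of the 12 were below background on all arrays and the first listed, Tbr1, was read on 1 A+/G+ array. For microglia and blood 1 of 10 passed (Tmem119) and for endothelium 1 of 8 (Cdh5), both toward A+/G+, and Ptprc was below background on all arrays.

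Other presynaptic genes were read in the same way. Of 50 other presynaptic genes, 7 passed as higher in A+/G+ (Slc32a1, Syt12, Slc17a8, Syt6 and Cask among them) and none as higher in A-/G+, and 4 were called. Their median difference was 0.28, with the mean higher in A+/G+ for 34. At an unadjusted p of at most 0.05 (limma), 20 of the 50 passed, compared with 30.9% of all genes named by RefSeq. Of all these genes, 7.88% passed toward A+/G+ and 5.01% toward A-/G+, and 2.77% were called toward A+/G+. Slc32a1, which encodes the vesicular transporter of GABA and glycine, read 10.77, 9.96 and 9.98 against 7.05, 7.004 and 8.13 (adjusted p = 0.0224). Every array read it well above background, and the fractions did not overlap. Syt12 was at least 1.16-fold and Slc17a8, which encodes VGLUT3, at least 1.92-fold higher, each below background on all A-/G+ arrays. The transporter genes of the 43, Slc17a6 and Slc17a7, were not called while Slc32a1 and Slc17a8 were.

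General trafficking genes, which every cell uses, served as a comparison. None of 35 passed in either direction (limma, and 1 by the methods' t-test), 33 were read on all arrays, and their median difference was 0.14. At an unadjusted p of at most 0.05, 8 of the 35 passed, compared with 30.9% of all genes. Their first listed genes, Snap23, Snap29 and Snap47, differed by -0.62, 0.53 and 0.28. The Snap23 probe shared runs with probes of 26 other genes. It read 12.06, 9.94 and 9.83 in replicates 1, 2 and 3 of A-/G+, and its medians were 1.02-fold apart. No test of the presynaptic list against this list was made.

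Promoters were searched for the letters of a few regulatory motifs. RefSeq (GRCm38.p6) gave a promoter window, from 250 bases before the start site to 50 after it, for 33 of the 43 genes. RE1, the element bound by the repressor REST, which keeps neuronal genes silent outside neurons, is made of a left and a right site. The left one, TTCAGCACC, was found on either strand in 2 of 33 genes (Syn1 and Unc13a) and in 0.433% of the 27025 genes with a window. The right one, GGACAGC, was found in Unc13a and Rph3a and in 7.59% of all genes. The cAMP response element TGACGTCA was found in Syn1 alone (2.03% of all genes), and TATAAA in Sv2b alone (15.7%). The Syn1 and Unc13a windows are shown with the motifs in capitals, because these 2 genes hold the left site.
Syn1, RE1 left site at -232, chrX:20921121-20921168, minus strand: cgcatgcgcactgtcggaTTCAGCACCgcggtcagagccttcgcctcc
Syn1, cAMP response element at -159, chrX:20921049-20921098, minus strand: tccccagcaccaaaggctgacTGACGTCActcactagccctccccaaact
Unc13a, both RE1 sites on the opposite strand with 8 bases between them, chr8:71671727-71671750, minus strand: GCTGTCCgcgcccccGGTGCTGAA
Both genes had overlapping fractions, with the signals of Syn1 given above and those of Unc13a at 5.09, 5.08 and 4.54 in A+/G+ and 4.73, 4.75 and 4.90 in A-/G+, where it was well above background on 1 array. A match is a matter of letters and no evidence of binding, and a gene without a match may hold the element outside the window.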

How the data were processed

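Gene expression was measured on 6 arrays, 3 per fraction. The authors extracted the signals with Agilent Feature Extraction 10.7.3.1 and deposited, for every spot, a background-corrected intensity and flags. They also deposited a quantile-normalized table of log2 values, which has 38 empty cells and served as an alternative. Starting from the spot intensities, log2 values were taken without control spots and outlier flags, quantile normalized between arrays, and averaged within a probe. The comparison of the fractions covered all 55681 probes, using limma 3.58.1 (R 4.3.3) and Benjamini-Hochberg adjustment. A probe passed at an adjusted p of at most 0.05 and was called when its medians were also at least 4-fold apart, as in the study's methods, which used Student's test. Dim probes were kept. The replicates are described as biological triplicates, the p-values measure the spread between them, and the number of arrays limits the precision.

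A probe that no array of a fraction read has a bound there, unless the bound would fall below 1-fold. The N in "at least N-fold" sets the brighter fraction's mean against a floor, which on each array is the weakest signal that was well above background, or the signal of the probe itself if that was higher. The weakest such signal is no upper limit for dim probes. On replicate 2 of A-/G+ it was 4.45, while Calb1 read 5.01 there without being well above background. The bounds are therefore approximate. Gene names and positions come from the array's annotation (mm9), and 22373 of 34836 names were found in RefSeq (GRCm38.p6). A gene is given with its value on all 6 arrays where any of its probes passed or was well above background on all arrays, and other genes are given by ranges and counts or, where a sentence turns on them, by value. From other lists, at most the 4 genes with the largest difference among those that passed, and the first 3 genes of a cell type list, were to be named. Names beyond these are of genes counted in the text and were added after their values were seen. Some genes and sequences are not reported here. The members and lists were chosen with earlier results of these data known. Alternatives comprised scaling to the 75th percentile, normexp with an offset of 50, the authors' table, 2 filters on dim probes, the methods' t-test, trended and robust variance, medians 2-fold apart, averaging the probes of a gene, keeping outlier spots, the replicate number as a block, and leaving out each array. Leaving out probes with shared runs was chosen after seeing the data. On simulated data of 55681 probes, with 50 probes changed by each of 1, 2, 3 and 4 on the log2 scale, limma passed 38%, 44%, 68% and 84% of them.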

Additional observations from a re-analysis of the deposited data

How the results depend on the processing

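The counts of presynaptic genes moved with the handling of dim probes and with single arrays. Main counts were 5 and 1 genes passing toward A+/G+ and A-/G+, 3 and 0 called, and 851 and 222 probes called over the whole array. With the shift to the 75th percentile 3 genes passed toward A+/G+, and 604 and 938 probes were called. Normexp gave 9 and 2 passing and 0 called, with 234 and 48 probes. Leaving out dim probes gave 10 and 2 passing and 5 called. Keeping only probes well above background on all arrays gave 2 passing toward A-/G+ and 1 called toward A+/G+, with 248 probes. The methods' t-test gave 0 passing toward A-/G+, with 487 and 121 probes called, and trend and robust variance gave 2 toward A-/G+. With medians 2-fold apart, 1 gene was called toward A-/G+, with 1797 and 1340 probes. With single arrays left out, between 2 and 8 genes passed toward A+/G+ and between 0 and 2 toward A-/G+, between 2 and 6 were called toward A+/G+, and between 340 and 1458 and between 77 and 490 probes were called. The authors' table, outlier spots kept, averaged probes and probes with shared runs left out kept the counts of these genes within 1.5 times. With averaged probes, however, the called genes were Syt4 and Dnm1, so that Syt7 and Nrxn3 were not called, and Syt7 did not pass. Of the other lists, the other presynaptic genes (4 called toward A+/G+) gave 2 with the shift, with normexp and with only probes well above background on all arrays, 0 with the replicate block, and between 3 and 7 with single arrays left out. The pan-neuronal list (0 called) gave 1 with the shift, the authors' table, only probes well above background on all arrays, medians 2-fold apart and outlier spots kept, 2 with trend and robust variance, 4 with normexp and with dim probes left out, and between 0 and 4 with single arrays left out. The trafficking list (0 called) gave between 0 and 1 with single arrays left out. The cause of these shifts was not tested, other than that filters test fewer probes.

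Samples of both fractions carry the numbers 1 to 3. The deviations of same-numbered arrays from their fraction means correlated at 0.196, 0.113 and -0.113. Replicate 3 of each fraction correlated best with a replicate 2 of the other (0.169 and 0.118). With 3 arrays per fraction, these values cannot show whether same-numbered arrays share a pool of cerebella or a sort. With the replicate block 0 presynaptic genes and 0 probes passed or were called in either direction. Of 663 recomputed differences of the 43 genes, 18 turned sign, in 13 genes, none of which passed in the main comparison. These were Sv2b (-0.080), Slc17a7 (-0.35), Cplx3 (-1.36), Unc13a (-0.13) and Rims2 (-0.028) with the shift, Syt2 (0.036) with normexp, and Cplx2 (0.91) with shared probes left out. With single arrays left out, the differences ran from -0.058 (without replicate 1 of A+/G+) to 0.30 for Syn1, from -0.40 (replicate 1 of A-/G+; -0.13 without replicate 2 of A+/G+) to 0.40 for Sv2b, from -0.11 (replicate 3 of A+/G+) to 0.30 for Cplx3, from -0.64 to 0.25 (replicate 1 of A-/G+) for Snap25, from -0.19 (the same array) to 0.28 for Vamp1, from -0.15 (the same array) to 0.77 for Rims2, from -0.34 to 0.12 (replicate 2 of A-/G+) for Erc2, from -0.0069 (the same array) to 0.44 for Stx1a, from -0.030 (the same array) to 0.57 for Rab3c and from -0.076 (the same array) to 0.27 for the Nrxn3 probe that overlapped. The signal over background of the A-/G+ arrays limits what can be said of dim genes.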
